A study of Homo sapiens with 12 samples.

Results

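The genes described here are 9 textbook transcriptional targets of the tumour suppressor p53: MDM2, GADD45A, SESN1, SESN2, TP53I3, FAS, BBC3, BAX and BTG2. They were followed in A549, a lung adenocarcinoma cell line of human origin, after depletion of either of 2 subunits of a histone deacetylase complex. Members were all array probe sets annotated to 1 of these genes and to no other gene, which gave 22 of 54675 probe sets and 7 of the 9 genes, of 19775 genes in all with a probe set of their own. MDM2 had 10 probe sets, FAS 5, SESN2 and BAX 2 each, and GADD45A, SESN1 and TP53I3 1 each. BBC3 was read only by a probe set that is also annotated to MIR3190 and MIR3191, so its values are given as those of the shared probe set and enter no count. BTG2 was not analysed here.

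The study compared cells 3 days after transfection with 50 nM small interfering RNA (siRNA), in 2 separate experiments of 6 arrays. In the first, 3 arrays of cells with a FAM60A siRNA (1 siRNA is named in the labels) stood against 3 arrays of cells with a non-targeting siRNA. In the second, 3 arrays of cells with an SDS3 siRNA, which the labels do not identify further, stood against 3 other non-targeting arrays. Both proteins belong to the SIN3-HDAC co-repressor, and their genes are now called SINHCAF (for FAM60A) and SUDS3 (for SDS3). The question was which p53 target transcripts changed when either subunit was depleted, and whether the 2 depletions differed.

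p53 is a transcription factor that is kept low in unstressed cells because MDM2, an E3 ubiquitin ligase and itself a p53 target, marks it for degradation. When p53 accumulates it binds paired half-sites near its targets, which act in cell cycle arrest and DNA repair (GADD45A, BTG2), in control of mTORC1 signalling and oxidative stress (SESN1, SESN2, TP53I3) and in cell death (FAS, BBC3, BAX). p53 protein and its modifications were not measured, so transcript levels are all that follows.

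To show where p53 response elements can lie in these genes, RefSeq promoter windows (GRCh38.p14, from 250 bases before to 50 bases after each annotated start) were searched on both strands. The search looked for 2 adjacent copies of the 10-base p53 half-site motif with a spacer of 0 to 2 bases and at most 2 mismatches in all. The core C and G of each copy had to match, so mismatches were allowed only at its other bases. Such a pair was present in 263 of 35116 windows (0.749%) and in 259 of 27305 genes (0.949%), and in 2 of the 8 member genes that the table holds, MDM2 and FAS. Both pairs are printed within the 250 bases before an annotated start of the gene, on the plus strand, with the pair in capitals. The MDM2 stretch is chr12:68808767-68809016 and the FAS stretch is chr10:88991181-88991430.
MDM2: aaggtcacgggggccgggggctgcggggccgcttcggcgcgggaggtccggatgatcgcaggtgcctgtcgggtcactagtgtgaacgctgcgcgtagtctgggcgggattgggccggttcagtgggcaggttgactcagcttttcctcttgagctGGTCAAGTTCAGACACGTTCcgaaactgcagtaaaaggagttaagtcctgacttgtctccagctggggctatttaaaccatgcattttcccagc
FAS: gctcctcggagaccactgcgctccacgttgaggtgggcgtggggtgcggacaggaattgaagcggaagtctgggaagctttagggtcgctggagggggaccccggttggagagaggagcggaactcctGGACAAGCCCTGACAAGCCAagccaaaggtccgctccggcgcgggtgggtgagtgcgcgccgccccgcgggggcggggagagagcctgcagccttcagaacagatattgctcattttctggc
Each pair carried 2 mismatches to the motif, with a spacer of 0 bases. The MDM2 pair began at -94 and the FAS pair at -122 relative to the start of the printed window, and the MDM2 pair at -101 from another annotated start. Both genes also have annotated starts further upstream, and the windows of those held no pair. These are matches in the reference sequence, and no binding was measured. The windows of SESN1, SESN2, TP53I3, BAX, BBC3 and BTG2 held no pair under this rule, which says nothing of sites elsewhere in those genes. Of the genes with a pair, MDM2 fell in 1 knockdown on most of its probe sets, and FAS fell modestly in both, as described next.

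The values are probe set signals after RMA normalization by the authors, taken to log2, and changes are knockdown minus control on that scale. A probe set was tested where at least 3 of 12 arrays reached log2 5, which kept 48347 probe sets and 21 of the 22 members. MDM2 237891_at stayed between 2.86 and 4.41 and was not tested. The filter took the 12 arrays together, so MDM2 211832_s_at and 205386_s_at passed through the FAM60A arrays alone. Both lay below log2 5 on every SDS3 array and still count as tested there and in the differences. Changes were tested with limma per experiment, and a call means an adjusted p under 0.05 over all tested probe sets. Both knockdowns were visible in their own targets: SINHCAF 220147_s_at stood at 15.5% of its controls and SUDS3 233841_s_at at 33.4% of its controls. The median signal was 186 to 192.6 on the FAM60A arrays and 96.82 to 98.32 on the SDS3 arrays. No level was therefore tested against another experiment or another probe set, and levels printed side by side are descriptive only. All 10 epithelial markers of the list reached log2 5 on all 12 arrays. The highest were KRT7 (14.33 to 14.70), KRT8 (13.85 to 14.56) and KRT18 (14.67 to 15.09), while KRT19 read 9.68 to 10.75. The lung markers read 6.55 to 8.32 (NKX2-1), 7.44 to 8.72 (SFTPB), 7.61 to 8.79 (SFTPC) and 7.19 to 8.52 (NAPSA). Markers of other cell types, described below, reached log2 5 as well, so that level alone does not show that a marker is expressed. Of the 10 epithelial markers 2 rose and 2 fell after FAM60A depletion (40% called), near the 36.8% of all genes called. After SDS3 depletion 1 rose and 5 fell (60%), where 34.6% of all genes were called. The adhesion genes EPCAM (-1.22 and -0.58) and CDH1 (-0.49 and -1.52) fell in both, while KRT7 rose in both (0.27 and 0.25). KRT19 rose after FAM60A depletion (0.50) and fell after SDS3 depletion (-0.35), where KRT8 (-0.35) and KRT18 (-0.25) fell as well. Summed linear signal of the 10 was 82542 to 86322 in FAM60A controls, 82361 to 86175 in that knockdown, 73958 to 75901 in SDS3 controls and 68504 to 69264 in that knockdown.

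Of 12 markers of other cell types 10 had a probe set of their own. PTPRC, the pan-leukocyte marker, reached log2 5 on 1 of 12 arrays and CDH5, an endothelial cadherin, on 6, while CD3E (7.20 to 7.87), CD14, PECAM1, VWF, COL1A2, PDGFRB, DCN and LUM reached it on all 12. Of the 9 tested, 1 was called after FAM60A depletion (11.1%, where 36.8% of all genes were called), LUM at -0.60. After SDS3 depletion 3 were called (33.3%, where 34.6% of all genes were called), LUM (-0.85), CD14 (-0.28) and COL1A2 (0.39). Summed linear signal of the 10 was 2077 to 2183 in FAM60A controls, 1953 to 2140 in that knockdown, 1038 to 1084 in SDS3 controls and 1017 to 1046 in that knockdown. The part of any of these markers in the results was not tested. Nothing in the labels says whether the 3 wells of a group were separate cultures. The p-values therefore cover only the spread seen among these arrays, which may be technical, and 3 arrays a group limit the precision. Fewer cells of a type and less RNA per cell cannot be told apart in bulk RNA.

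**Figure D1:**
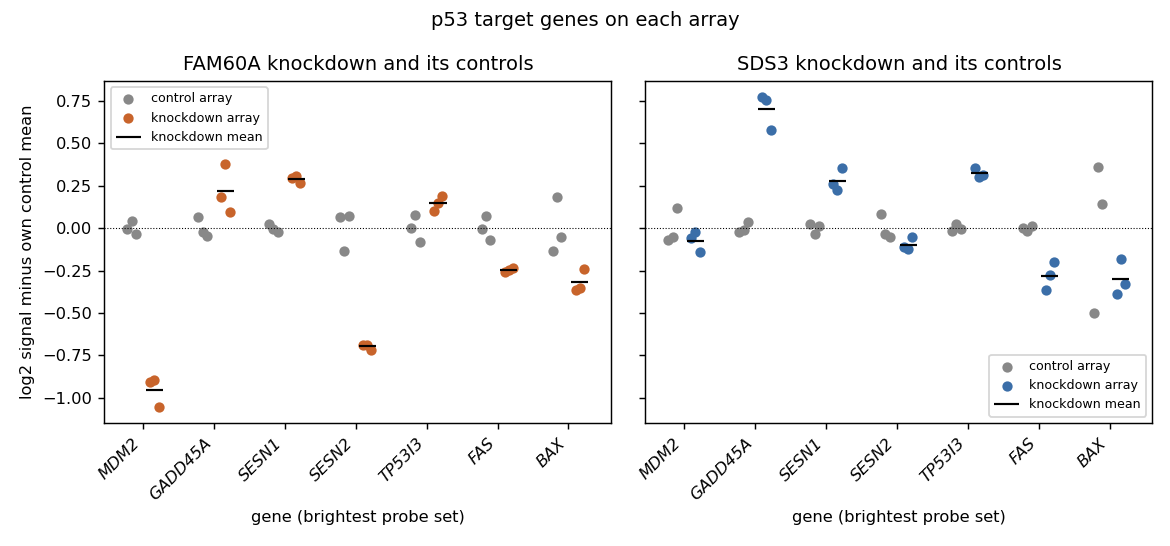
Log2 signal minus the mean of the controls of the same experiment (y axis) for the brightest probe set of each of the 7 member genes (x axis); grey points are control arrays, coloured points knockdown arrays and black lines knockdown means. After FAM60A depletion MDM2 and SESN2 lie lowest (means -0.95 and -0.70), after SDS3 depletion GADD45A lies highest (0.70), and 1 SDS3 control array of BAX lies below all 3 knockdown arrays.

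After FAM60A depletion the p53 targets split: MDM2, SESN2, FAS and BAX fell, SESN1 rose, and GADD45A and TP53I3 did not pass the test over probe sets. Of the 21 tested member probe sets 14 were called (66.7%), 1 higher and 13 lower, where 26.8% of all tested probe sets were called (14.7% higher, 12.1% lower). The groups did not overlap for 17 of 21, where 41% of all tested probe sets did not overlap. The median member change was -0.28 (range -0.95 to 0.28) beside a median of -0.02 over all tested probe sets. Since 14 of the 21 probe sets read MDM2 or FAS, the count by gene is the fairer one: with the brightest probe set per gene, 2 of 7 genes were called higher and 4 lower (85.7%), where 36.8% of 18621 genes were called (19.2% higher, 17.6% lower). The 2 called higher were SESN1 and GADD45A, whose change of 0.22 passed only over genes (limma adjusted p 0.0379, against 0.0622 over probe sets).

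After SDS3 depletion GADD45A, SESN1 and TP53I3 rose, FAS fell, MDM2 fell on 1 of 9 probe sets, and SESN2 and BAX did not pass the test. Of the 21 probe sets 7 were called (33.3%), 3 higher and 4 lower, where 24.2% of all tested probe sets were called (11% higher, 13.2% lower). The 21 include MDM2 211832_s_at and 205386_s_at, which lay below the filter level on every SDS3 array. The groups did not overlap for 11 of 21, where 39.4% of all tested probe sets did not overlap. The median member change was -0.14 (range -0.40 to 0.70) beside 0.0082 over all tested probe sets. By gene, 3 of 7 were called higher and 1 lower (57.1%), where 34.6% of all genes were called (15.8% higher, 18.8% lower). The share of members called in the SDS3 experiment thus lay near the background on probe sets.

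These changes are relative to the bulk of transcripts, because RMA gives the arrays it normalizes a common distribution. The poly-A control RNAs, read by 24 probe sets, were 0.10 higher in the FAM60A knockdown than in its controls and 0.32 higher in the SDS3 knockdown. By array they averaged 10.95, 11.03 and 11.06 in FAM60A controls and 10.93, 11.25 and 11.16 in that knockdown, so these groups overlapped. In SDS3 controls they averaged 9.42, 9.77 and 9.42, and in that knockdown 9.80, 9.88 and 9.90. Scaling each array to its own mean carries this spread into every probe set. Its part in the calls lost or gained was not tested. Scaling the arrays to the poly-A controls moved the median of all tested probe sets to -0.12 and -0.31, and the member calls to 0 higher and 10 lower after FAM60A depletion and 1 higher and 17 lower after SDS3 depletion. At that scaling 13.6% of all tested probe sets were called after FAM60A depletion (2602 higher, 3964 lower) and 45.1% after SDS3 depletion (950 higher, 20869 lower), so the member falls after SDS3 depletion went with a shift of the whole array. The hybridisation controls, read by 18 probe sets, were at -0.06 and 0.08 and did not share the size of the poly-A shift. The 18S ribosomal RNA, read by 3 probe sets, was 0.28 and 0.53 higher in the knockdowns. Their part in the results was not tested.

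**Figure D2:**
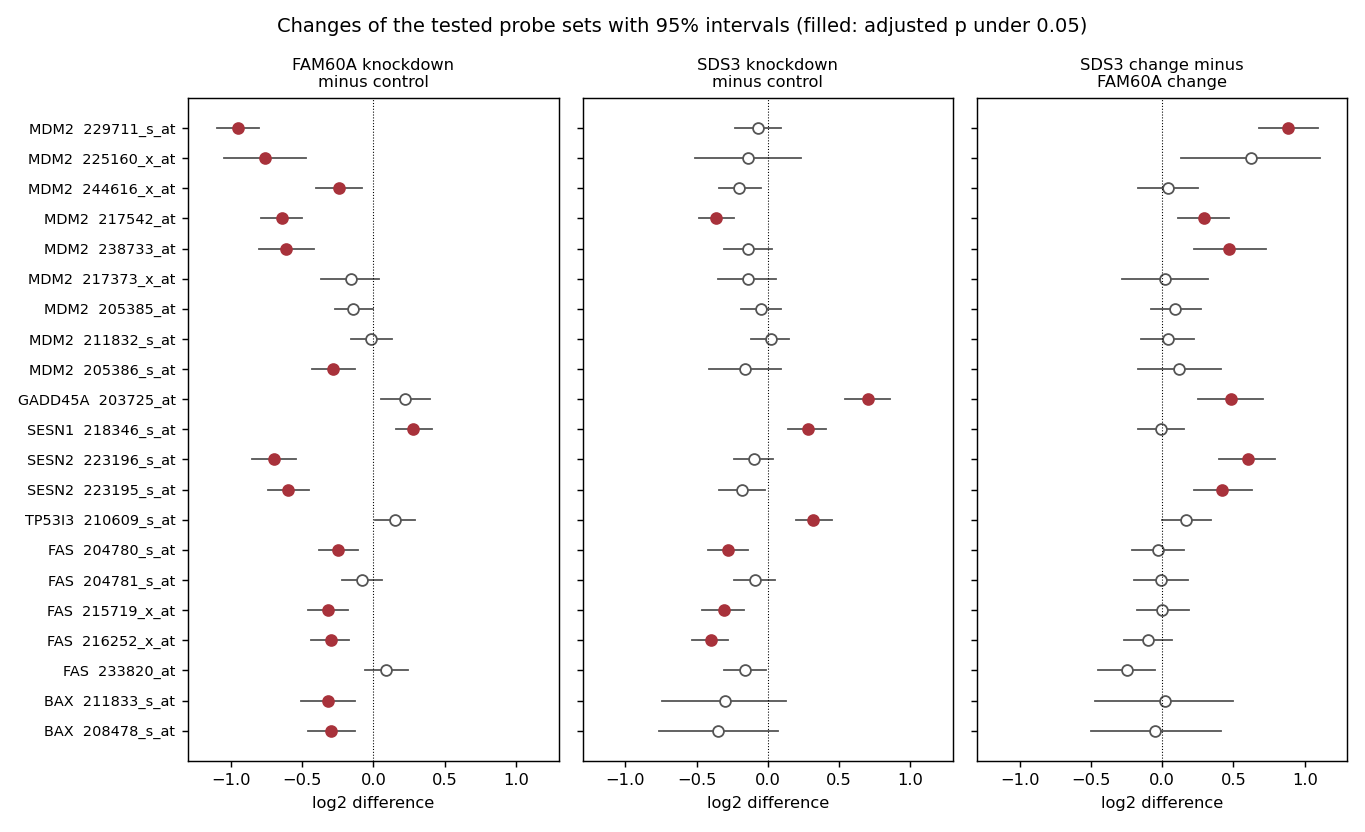
Log2 change of the 21 tested member probe sets after FAM60A depletion (left), after SDS3 depletion (middle) and the difference between these changes (right), with 95% intervals; filled points have a limma adjusted p under 0.05. The left panel holds 14 filled points, 13 of them below 0, the middle panel 7 and the right panel 6, all above 0.

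MDM2, the ubiquitin ligase that limits p53, showed the largest change among the members after FAM60A depletion. Its brightest probe set, 229711_s_at, read 11.79, 11.84 and 11.76 in the 3 FAM60A controls and 10.89, 10.90 and 10.74 in the knockdown. Every knockdown array lay below every control, and the signal stood at 51.8% of control (log2 change -0.95, SE 0.0653, limma adjusted p 5.85e-06). In the SDS3 experiment the same probe set read 10.83, 10.85 and 11.02 in controls and 10.84, 10.88 and 10.76 in the knockdown. Those groups overlapped, with a change of -0.07 (95% interval -0.23 to 0.09, limma adjusted p 0.55). The difference between the 2 knockdowns was 0.88 (SE 0.0957, limma adjusted p 3.14e-05).

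Other MDM2 probe sets varied in the size of the fall. Probe set 238733_at read 8.06, 8.19 and 7.98 in FAM60A controls and 7.35, 7.62 and 7.42 in the knockdown (-0.61, limma adjusted p 0.000442). All 3 knockdown arrays were lower than the controls. In the SDS3 arrays it read 7.77, 7.70 and 7.79 in controls and 7.75, 7.50 and 7.61 in the knockdown, with overlapping groups (-0.14, limma adjusted p 0.235). The difference between knockdowns was 0.47 (limma adjusted p 0.0128).

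Probe set 217542_at was the one MDM2 probe set called lower in both knockdowns. It read 8.32, 8.14 and 8.16 in FAM60A controls and 7.57, 7.52 and 7.60 in the knockdown (-0.64, limma adjusted p 7.48e-05). On the SDS3 arrays it read 7.85, 7.86 and 7.88 in controls and 7.52, 7.51 and 7.50 in the knockdown (-0.36, limma adjusted p 0.00143). Neither pair of groups overlapped. The 2 changes differed by 0.29 (limma adjusted p 0.0263), a call lost when FAM60A control 1, FAM60A knockdown 2, SDS3 control 2, SDS3 knockdown 1 or SDS3 knockdown 2 was left out (limma adjusted p 0.0640, 0.0625, 0.0545, 0.0548 and 0.051).

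Probe set 225160_x_at read 10.64, 10.76 and 10.48 in FAM60A controls and 10.17, 9.61 and 9.81 in the knockdown, again without overlap (-0.76, limma adjusted p 0.00154). Its SDS3 controls were spread widely at 8.83, 9.60 and 9.15, around knockdown values of 9.04, 9.06 and 9.04 (-0.14, limma adjusted p 0.59), and without SDS3 control 2 the change was 0.06. Of the remaining 5 tested MDM2 probe sets, 205386_s_at and 244616_x_at fell after FAM60A depletion by 0.28 and 0.24 (limma adjusted p 0.0119 and 0.034). The first call was lost without FAM60A control 1 (-0.23, limma adjusted p 0.0542), and the second without FAM60A control 1, control 3, knockdown 2 or knockdown 3 (limma adjusted p 0.0859, 0.121, 0.083 and 0.120). For 217373_x_at, 205385_at and 211832_s_at the changes were -0.16, -0.14 and -0.02 (limma adjusted p 0.241, 0.127 and 0.88). After SDS3 depletion these 5 ranged from -0.20 to 0.02 (limma adjusted p 0.0573 to 0.873). The lowest of them, 244616_x_at, passed with a level filter at log2 7 (limma adjusted p 0.031). On the SDS3 arrays 211832_s_at read 4.76 to 4.89 and 205386_s_at 3.67 to 4.09, below the filter level of log2 5. Their small changes there therefore do not show that MDM2 held steady.

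The MDM2 probe sets therefore gave different sizes for 1 gene, from -0.95 to -0.02 after FAM60A depletion, with 6 of 9 called lower. On the FAM60A arrays some markers of other cell types read 7.65 to 7.87 (CD3E) and 7.72 to 8.01 (VWF). MDM2 217373_x_at, 205385_at, 211832_s_at and 205386_s_at lay below these there, and 217542_at and 238733_at at about that level. Their signals may thus lie near background, and its part in the sizes was not tested. Averaged over its probe sets, MDM2 changed by -0.39 (limma adjusted p 0.000265) after FAM60A depletion and by -0.12 (limma adjusted p 0.0965) after SDS3 depletion. Which stretch of the transcript each probe set reads was not used here. The 4 probe sets with the largest changes included 2 that carry no shared-sequence suffix (217542_at and 238733_at). The other tested MDM2 probe set without that suffix, 205385_at, gave -0.14 and was not called (limma adjusted p 0.127). MDM4, the relative of MDM2 that binds p53, gave 0.02 and -0.03 on its brightest probe set (limma adjusted p 0.844 and 0.709), the first of these changing sign under other scalings. Its 5 further probe sets gave -0.35 to -0.06 after FAM60A depletion and -0.09 to 0.05 after SDS3 depletion, all with limma adjusted p at or above 0.05.

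Among the genes of growth arrest and repair, GADD45A, a stress-inducible protein that binds PCNA and CDK1, rose with SDS3 depletion. Probe set 203725_at read 11.28, 11.29 and 11.34 in SDS3 controls and 12.08, 12.06 and 11.88 in the knockdown. All knockdown arrays lay above all controls, 1.62-fold higher (log2 change 0.70, SE 0.0693, limma adjusted p 0.000172). In the FAM60A experiment it read 11.92, 11.83 and 11.81 in controls and 12.04, 12.23 and 11.95 in the knockdown. Those groups did not overlap either, but the change of 0.22 (95% interval 0.05 to 0.40) missed the threshold over probe sets (limma adjusted p 0.0622). It passed over genes (0.0379) and without FAM60A knockdown 3 (0.28, limma adjusted p 0.0326). The change after SDS3 depletion was larger by 0.48 (limma adjusted p 0.00742).

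The sestrins, stress-induced inhibitors of mTORC1 signalling, moved in opposite directions after FAM60A depletion. SESN2 223196_s_at read 10.32, 10.12 and 10.33 in FAM60A controls and 9.57, 9.57 and 9.54 in the knockdown. The groups were well apart, at 61.8% of control (-0.70, SE 0.0696, limma adjusted p 5.95e-05). In the SDS3 experiment it read 9.13, 9.01 and 8.99 in controls and 8.93, 8.92 and 8.99 in the knockdown. The change there was -0.10 (95% interval -0.24 to 0.04, limma adjusted p 0.301), and the 2 knockdowns differed by 0.60 (limma adjusted p 0.00055).

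The second SESN2 probe set, 223195_s_at, gave the same order. It read 9.53, 9.62 and 9.56 in FAM60A controls and 9.06, 8.92 and 8.93 in the knockdown (-0.60, limma adjusted p 9.6e-05). Across the SDS3 arrays it read 8.56, 8.39 and 8.45 in controls and 8.21, 8.37 and 8.29 in the knockdown (-0.18, limma adjusted p 0.11). Every knockdown array was below every control in both experiments, and the difference between the changes was 0.42 (limma adjusted p 0.00734).

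SESN1 rose in both knockdowns by much the same amount. Probe set 218346_s_at read 9.74, 9.71 and 9.69 in FAM60A controls and 10.01, 10.02 and 9.98 in the knockdown (0.28, SE 0.0557, limma adjusted p 0.00367, 1.22-fold). In the other experiment it read 9.14, 9.08 and 9.13 in controls and 9.38, 9.34 and 9.47 in the knockdown (0.28, SE 0.0599, limma adjusted p 0.0101, 1.21-fold). Neither pair of groups overlapped. The changes differed by -0.01 (95% interval -0.17 to 0.15, limma adjusted p 0.956). Scaled to the poly-A controls they were 0.18 (limma adjusted p 0.428) and -0.05 (limma adjusted p 0.779), so the direction after SDS3 depletion turned.

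TP53I3 (PIG3), a quinone oxidoreductase, rose after SDS3 depletion. Probe set 210609_s_at read 12.94, 12.98 and 12.95 in SDS3 controls and 13.31, 13.26 and 13.27 in the knockdown. The groups did not overlap and the signal was 1.25-fold higher (0.32, SE 0.0534, limma adjusted p 0.00249), although scaled to the poly-A controls the change was 0.00 (limma adjusted p 0.991). In the FAM60A experiment it read 12.69, 12.77 and 12.61 in controls and 12.79, 12.84 and 12.88 in the knockdown. All knockdown arrays were above the controls by a narrow margin, and the change of 0.15 was not called (limma adjusted p 0.116), though it passed with limma's trend and robust options (0.0312). The changes were not shown to differ (0.17, limma adjusted p 0.156).

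FAS, the death receptor for FAS ligand, fell in both knockdowns. Its brightest probe set, 204780_s_at, read 10.91, 10.99 and 10.85 in FAM60A controls and 10.66, 10.67 and 10.68 in the knockdown (-0.25, SE 0.0601, limma adjusted p 0.0118). In the SDS3 groups it read 10.18, 10.16 and 10.19 in controls and 9.81, 9.90 and 9.98 in the knockdown (-0.28, SE 0.0623, limma adjusted p 0.0119). The groups did not overlap in either experiment, with signals at 84.2% and 82.5% of control, and the changes differed by -0.03 (limma adjusted p 0.855). Scaled to the poly-A controls the FAM60A change was -0.35 and lost its call (limma adjusted p 0.0831).

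The other FAS probe sets showed which of these falls repeat. Probe set 215719_x_at fell by 0.32 and 0.31 (limma adjusted p 0.00342 and 0.00769), and 216252_x_at fell by 0.30 and 0.40 (limma adjusted p 0.00453 and 0.000987), in the FAM60A and SDS3 knockdowns in that order. All 3 called FAS probe sets carry a suffix of probe sets that can read more than 1 transcript, and the only FAS probe set without one, 233820_at, did not pass. The other 2, 204781_s_at (-0.08 and -0.09) and 233820_at (0.09, or -0.01 scaled to the poly-A controls, and -0.16), did not pass. Thus 3 of 5 FAS probe sets were called lower in each knockdown.

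BAX, the pore-forming effector of mitochondrial cell death, was lower after FAM60A depletion on both probe sets. Probe set 211833_s_at read 11.23, 11.55 and 11.31 in FAM60A controls and 11.00, 11.01 and 11.12 in the knockdown (-0.32, limma adjusted p 0.0192). Probe set 208478_s_at read 10.84, 11.00 and 10.75 in controls and 10.58, 10.52 and 10.61 in the knockdown (-0.30, limma adjusted p 0.0132). The groups did not overlap, but the calls were close to the threshold. The first was lost without FAM60A knockdown 1 (limma adjusted p 0.0587) or knockdown 2 (0.0620), the second without knockdown 2 (0.0505), and both in a fit of all 12 arrays (0.172 and 0.169).

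In the SDS3 experiment the BAX result depended on which control arrays were kept. Probe set 211833_s_at read 9.16, 10.02 and 9.80 in SDS3 controls and 9.27, 9.48 and 9.33 in the knockdown (-0.30, 95% interval -0.74 to 0.13, limma adjusted p 0.307). Probe set 208478_s_at read 8.87, 9.68 and 9.53 in controls and 8.96, 9.10 and 8.98 in the knockdown (-0.35, limma adjusted p 0.216). On both probe sets SDS3 control 1 lay below all 3 knockdown arrays, while controls 2 and 3 lay above them. Without SDS3 control 1 the changes were -0.55 (limma adjusted p 0.00604) and -0.59 (limma adjusted p 0.00178), both called. Since control 1 is the lowest, leaving it out can only deepen the fall, and leaving out control 2 or 3 makes it smaller. Which of the controls is out of place was not tested.

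**Figure D3:**
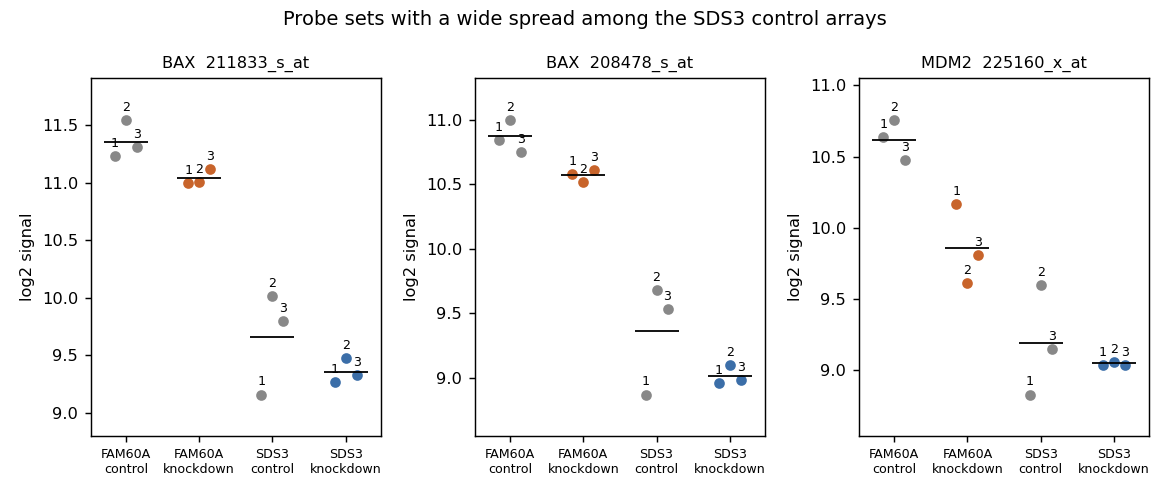
Log2 signal of the 3 tested member probe sets with the largest standard deviation among the SDS3 controls (2 of BAX and MDM2 225160_x_at); points are arrays with their replicate numbers, lines are group means. SDS3 control 1 is the lowest of its group in all 3 panels, at 9.16, 8.87 and 8.83.

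BBC3 (PUMA), a BH3-only activator of cell death, could be read only through the probe set shared with MIR3190 and MIR3191. That probe set, 211692_s_at, read 9.50, 9.46 and 9.35 in FAM60A controls and 9.42, 9.41 and 9.33 in the knockdown (-0.05, 95% interval -0.19 to 0.10, limma adjusted p 0.658). In the SDS3 experiment it read 8.57, 8.56 and 8.39 in controls and 8.52, 8.66 and 8.67 in the knockdown (0.11, 95% interval -0.06 to 0.28, limma adjusted p 0.335). The groups overlapped in both experiments.

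The knockdowns differed on 6 of the 21 member probe sets (28.6%), where 16.9% of all tested probe sets differed (6.28% higher and 10.6% lower in SDS3 minus FAM60A). All 6 differences were positive: 3 of MDM2, 2 of SESN2 and 1 of GADD45A. For MDM2 and SESN2 this was a deeper fall after FAM60A depletion, and for GADD45A a larger rise after SDS3 depletion. By gene, 3 of 7 differed (42.9%), where 25.3% of all genes differed. Scaled to the poly-A controls 1 of the 6 was still called, MDM2 229711_s_at (0.66, limma adjusted p 0.0202).

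CDKN1A (p21), the cyclin-dependent kinase inhibitor that is the classical p53 target of arrest, is no member but was read beside them. Probe set 202284_s_at read 12.14, 12.17 and 12.19 in FAM60A controls and 12.42, 12.40 and 12.41 in the knockdown, so that it rose by 0.24 (SE 0.052, limma adjusted p 0.00364). It read 11.60, 11.61 and 11.64 in SDS3 controls and 11.45, 11.53 and 11.48 in the knockdown (-0.13, 95% interval -0.24 to -0.01, limma adjusted p 0.082, and 0.0442 in a fit of all 12 arrays). Neither pair of groups overlapped, and the changes differed by -0.37 (SE 0.0656, limma adjusted p 0.000846). Scaled to the poly-A controls the FAM60A change was 0.14 and not called (limma adjusted p 0.492), and the SDS3 change was -0.45 and called lower (limma adjusted p 0.00643).

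The wider p53 pathway was read at gene level from lists of known regulators and targets. Of 64 tested target genes other than the members, 18 rose and 19 fell after FAM60A depletion (57.8% called, median change -0.044), and 14 rose and 16 fell after SDS3 depletion (46.9%, median -0.056). The background was 36.8% and 34.6% of genes called, with medians of -0.023 and 0.0064. Rises and falls were thus near equal in number in both knockdowns.

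Targets in cell cycle control and p53 feedback were called most often in the FAM60A experiment. Of 19 tested, 10 rose and 4 fell after FAM60A depletion (73.7%, median 0.15), and 6 rose and 4 fell after SDS3 depletion (52.6%, median 0.043). TP53INP1, a p53-induced nuclear protein, rose by 0.71 and 0.91 (SE 0.0528 and 0.062, limma adjusted p 2.34e-06 and 1.35e-05), although its 2 further probe sets were not called in either. TRIM22, an interferon- and p53-inducible ubiquitin ligase, rose by 0.78 (limma adjusted p 3.38e-05) and TRIAP1, an inhibitor of apoptosis, fell by 0.63 (limma adjusted p 7.64e-06) after FAM60A depletion. After SDS3 depletion they were at -0.15 and 0.15 and not called. After SDS3 depletion GDF15, a stress cytokine, fell by 1.41 (limma adjusted p 3.86e-05) on its brightest probe set and by 0.33 and 0.43 on its 2 others. GPNMB, a transmembrane glycoprotein, fell by 0.97 (limma adjusted p 5.53e-06) after SDS3 depletion. After FAM60A depletion GDF15 and GPNMB were at -0.01 and -0.11 and not called.

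Targets in cell death leaned lower in the FAM60A experiment. Of 21 tested, 3 rose and 8 fell after FAM60A depletion (52.4%, median -0.10), and 3 rose and 4 fell after SDS3 depletion (33.3%, median -0.034). STEAP3, an endosomal ferrireductase also known as TSAP6, rose by 2.15 and 1.85 (SE 0.0659 and 0.0838, limma adjusted p 9.31e-09 and 2.13e-06). The death receptor TNFRSF21 fell by 0.52 and 0.48 (limma adjusted p 8.03e-05 and 0.00273). PMAIP1 (NOXA), a BH3-only protein, fell by 0.48 (limma adjusted p 0.000494) after FAM60A depletion, and BID, another BH3-only protein, fell by 0.66 (limma adjusted p 2.31e-05) after SDS3 depletion. In the other knockdown PMAIP1 was at -0.13 and not called, and BID fell by 0.23.

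Targets in DNA repair and metabolism went both ways. Of 24 tested, 5 rose and 7 fell after FAM60A depletion (50%, median -0.032), and 5 rose and 8 fell after SDS3 depletion (54.2%, median -0.069). The lysosomal fucosidase FUCA1 rose by 0.73 (limma adjusted p 2.27e-06) and by 0.43 (limma adjusted p 0.00129; scaled to the poly-A controls 0.11, not called), but its other probe set gave 0.00 and 0.24 (limma adjusted p 0.994 and 0.0952). After FAM60A depletion LPIN1, a phosphatidate phosphatase, rose by 0.51 (limma adjusted p 0.000284), and SESN3, the third sestrin, fell by 0.60 (limma adjusted p 9.12e-05), 1 of its 4 further probe sets passing in that direction. Both also passed after SDS3 depletion (0.33 and -0.42). After SDS3 depletion the sugar transporter SLC2A12 fell by 1.65 (limma adjusted p 2.16e-06) and DRAM1, a lysosomal protein of autophagy, rose by 1.28 (limma adjusted p 1.99e-06). After FAM60A depletion SLC2A12 was at -0.23 and not called, and DRAM1 rose by 0.32.

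Regulators of p53 went both ways as well. Of 26 tested, 7 rose and 5 fell after FAM60A depletion (46.2%, median 0.018), and 5 rose and 6 fell after SDS3 depletion (42.3%, median -0.0037). CHEK1, the checkpoint kinase that phosphorylates p53, fell by 0.66 and 0.92 (SE 0.0538 and 0.0722, limma adjusted p 4.49e-06 and 2.82e-05). PPP1R13L (iASPP), an inhibitor of p53, rose by 0.54 and 0.65 (limma adjusted p 2.04e-05 and 3.96e-05). The acetyltransferase KAT5 rose by 0.75 (limma adjusted p 1.49e-06) after FAM60A depletion, and the p53 deacetylase SIRT1 fell by 0.94 (limma adjusted p 0.000134) after SDS3 depletion. In the other knockdown KAT5 rose by 0.46 (limma adjusted p 0.000432), and SIRT1 was at 0.02 and not called.

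**Figure D4:**
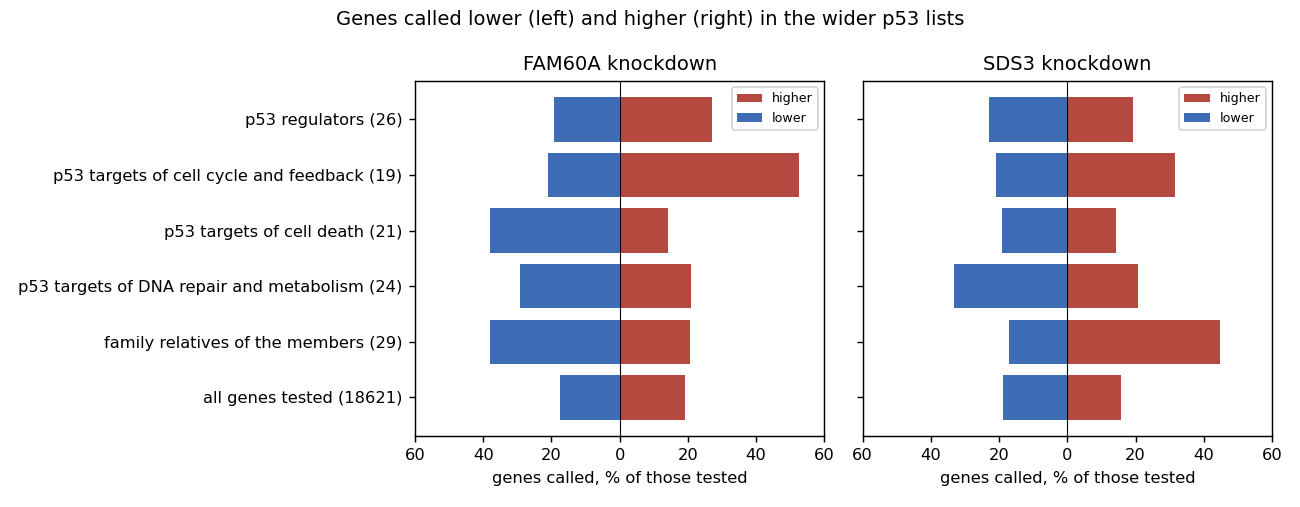
Share of tested genes called lower (bars to the left, %) and higher (bars to the right, %) in each wider p53 list and in all 18621 tested genes, for the FAM60A and SDS3 knockdowns; the number of tested genes stands beside each list. The bars of cell cycle and feedback targets are the longest to the right after FAM60A depletion (10 of 19), and those of cell death targets lean left (8 of 21).

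Genes whose arrays moved most like each member were found by Pearson correlation over the 12 arrays, each array set against the control mean of its own experiment. These values describe likeness and carry no test, since the arrays share 2 contrasts. MDM2 was most like LSM6 (r 0.992, changes -0.93 and -0.04) and PFDN4 (r 0.9919, -1.05 and -0.03), and SESN2 most like LONRF1 (r 0.9927, -0.88 and -0.12) and FAM168B (r 0.9913, -0.69 and -0.11). All 4 neighbours had the larger change after FAM60A depletion. SESN1 was most like HECA (r 0.9935, 0.98 and 0.94) and C3 (r 0.991, 0.80 and 0.76), and FAS most like MMAA (r 0.9829, -0.38 and -0.39) and TRAF3IP2 (r 0.9779, -0.31 and -0.46), with like changes in both knockdowns. GADD45A was most like FBXO46 (r 0.9775, 0.13 and 0.38) and NKAIN4 (r 0.9724, 0.41 and 1.10), and TP53I3 most like CNIH4 (r 0.9856, 0.22 and 0.46) and C19orf33 (r 0.9815, 0.28 and 0.63). BAX had the loosest neighbours, CCDC85B (r 0.9405, -0.23 and -0.28) and TMED9 (r 0.9382, -0.10 and -0.07).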

How the data were processed

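RNA of 12 samples was hybridised to 1-colour Affymetrix arrays. The authors deposited 1 linear intensity per probe set and array, made with RMA per the submitters' processing notes, which give neither a version nor which arrays were normalized together. Values were taken to log2, where the design had assumed log2 values. Groups came from the sample titles. Gene names came from the platform annotation (41097 with 1 symbol, 1801 with several, 11777 with none listed), with symbols updated through RefSeq (GRCh38.p14), which matched 41043.

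Each experiment was fitted alone with limma 3.58.1 under R 4.3.3 (a linear model with moderated variances, Benjamini-Hochberg over all tested probe sets, two-sided, threshold 0.05), and the difference between knockdowns in a fit of all 12 arrays; files were read with the data.table package, version 1.17.8. The procedure was tested on simulated data. Tested features had at least 3 of 12 arrays at log2 5. Gene level means the probe set with the highest mean among those of that gene alone.

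The members and lists were chosen with earlier results of these data known. Named genes are all members, the targets, MDM4 and CDKN1A, per list and knockdown up to 3 genes with the largest passing change and non-overlapping arrays, and per called member the 2 most correlated genes. The named list genes form 30 pairs of gene and knockdown, of which 23 had a further tested probe set; 17 of these had one called in the same direction and 2 one called in the opposite direction (BOK and BAD after FAM60A depletion). Alternatives were other filters, scalings, probe set choices, fits, a replicate block, minimum folds, a stricter threshold and each array left out.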

Additional observations from a re-analysis of the deposited data

Results flagged for a closer look

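For 6 member probe sets the change after SDS3 depletion differed from the change after FAM60A depletion by limma's test of the difference itself. The differences (SDS3 minus FAM60A, log2) were 0.88 for MDM2 229711_s_at, 0.47 for MDM2 238733_at and 0.29 for MDM2 217542_at. They were 0.60 for SESN2 223196_s_at, 0.42 for SESN2 223195_s_at and 0.48 for GADD45A 203725_at. Each knockdown has its own controls, and experiment and knockdown cannot be told apart in this design. The part of the experiment was not tested.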

How the results depend on the processing

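The member counts kept within 1.5 times their value under no filter, median centring, array weights and quantile normalization. Against 1 member probe set higher and 13 lower after FAM60A depletion, 2 were higher with a filter at log2 7 and in a fit of all 12 arrays, 3 with trend and robust, and 0 with spike-in scaling. The 5 members with no shared-sequence suffix gave 0 higher and 2 lower. One probe set per gene, brightest or averaged, gave 2 genes higher and 4 lower, an adjusted p under 0.01 gave 8 lower, and minimum changes of 1.5-fold and 2-fold gave 0 higher with 6 and 0 lower. Against 3 higher and 4 lower after SDS3 depletion, spike-in scaling gave 1 and 17, no shared sequence 1 and 1, 1.5-fold 1 and 0, 2-fold 0 and 0, and 1 probe set per gene 1 gene lower. Against 6 differences, 1 probe set per gene gave 3, no shared sequence 3, spike-in scaling 1, 1.5-fold 2 and 2-fold 0. The shares of all features called at these settings, for FAM60A, SDS3 and the difference in that order, were 13.6%, 45.1% and 9.7% with spike-in scaling, 23.5%, 21.3% and 14.6% with no shared sequence, 5.67%, 5.42% and 4.63% at 1.5-fold, and 1.32%, 1.37% and 0.894% at 2-fold. After FAM60A depletion they were 38.5% with the filter at log2 7, 27.6% in a fit of all 12 arrays, 29.2% with trend and robust, and 17.1% at 0.01.

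With each array left out in turn, 1 to 2 were higher and 10 to 13 lower after FAM60A depletion, 3 to 3 higher and 4 to 6 lower after SDS3 depletion, and 5 to 7 differed. Of all tested probe sets 21.2% to 24.6% were then called after FAM60A depletion, 18.5% to 22.3% after SDS3 depletion, and 13.5% to 17.5% differed. Small changes that turned sign were MDM4 after FAM60A depletion (-0.02 with quantile normalization, -0.08 with spike-in scaling, -0.01 with array weights, and -0.02 to 0.07 with an array left out) and PFDN4 after SDS3 depletion (0.00 with quantile normalization, and -0.11 to 0.02 with an array left out). With an array left out MDM2 211832_s_at ran from -0.06 to 0.02 after FAM60A depletion and from -0.01 to 0.04 after SDS3 depletion, and MDM2 225160_x_at from -0.32 to 0.06 after SDS3 depletion. With spike-in scaling MDM2 211832_s_at (-0.31), SESN1 (-0.05) and the shared BBC3 probe set (-0.21) turned after SDS3 depletion, and FAS 233820_at (-0.01) after FAM60A depletion. The cause was not tested.

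Same-numbered arrays did not deviate together (correlations of -0.138 to 0.0187), so the numbers were not taken as pairs. A replicate block gave 13 members called after FAM60A depletion, 7 after SDS3 depletion and 5 differences. The shares of all tested probe sets called with it were 22.9%, 21.3% and 13.1% in that order. MDM2 244616_x_at (limma adjusted p 0.0683) and the difference of MDM2 217542_at (0.0671) lost their calls.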

Other observations

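Relatives of the members within their protein families, the BCL2, sestrin, GADD45, BTG/TOB and death receptor families, were also read. Of 29 tested, 6 rose and 11 fell after FAM60A depletion (58.6% called, median -0.077), and 13 rose and 5 fell after SDS3 depletion (62.1%, median 0.057), where 36.8% and 34.6% of all genes were called. BOK, a BAX-like effector, rose by 1.33 and 0.98 on its brightest probe set (SE 0.0582 and 0.0577, limma adjusted p 6.92e-08 and 6.57e-06), while its other probe set, 221454_at, gave -0.22 (limma adjusted p 0.0426) and -0.12 (limma adjusted p 0.475). BCL2L11 (BIM), a BH3-only protein, rose by 1.27 (SE 0.0661, limma adjusted p 2.08e-07) after FAM60A depletion. Of its further probe sets 2 passed (0.79 and 0.70), and the others gave -0.16, 0.08, 0.12 and 0.06 and were not called. After SDS3 depletion it was at -0.13 and not called. BAD, another BH3-only protein, rose by 0.67 (limma adjusted p 3.77e-05) after FAM60A depletion, with its probe set 232660_at at -0.25 (limma adjusted p 0.0237), and by 0.25 after SDS3 depletion. After SDS3 depletion the antiproliferative gene BTG1 rose by 0.71 (limma adjusted p 2.8e-05) and GADD45B, the paralogue of GADD45A, by 0.66 (limma adjusted p 3.86e-05). After FAM60A depletion BTG1 rose by 0.41, and GADD45B was at -0.10 and not called.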
